A study of Mus musculus with 4 samples.

Results

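The 8 genes described here encode the nuclear lamins and the enzymes that mature prelamin A: Lmna, Lmnb1, Lmnb2, Fnta, Fntb, Rce1, Icmt and Zmpste24. They were chosen by gene symbol, and all 8 were found among the 55416 genes in the files, with 44 of the 142434 annotated transcripts. RNA was sequenced from C2C12 cells, an established mouse myoblast line, transfected with 3 µg of DNA for wild-type lamin A (2 libraries) or for K97E lamin A (2 libraries) and harvested after 24 h. K97E is the protein change given by 289A>G in LMNA, named in the labels as a mutation of dilated cardiomyopathy, a disease of heart muscle. The cell line field gives C2C12 for all 4 libraries, while the titles of both K97E libraries spell it C1C12. All libraries came from cells that received a lamin A DNA, and untransfected cells were not analysed here. Neither the species nor the promoter of the transfected DNA is given in the sources used here, and the cells still carry their own Lmna gene. The files assign reads to mouse gene models, in which RNA from the cells' own gene and from the transfected DNA cannot be told apart. Each library pooled many cells, perhaps transfected and untransfected ones together. Fewer cells expressing a gene and less of its RNA per cell therefore cannot be told apart.

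Lamins are filament proteins that form a mesh under the inner nuclear membrane. Lmna gives lamin A and lamin C by alternative use of its last exons, while the B-type lamins come from Lmnb1 and Lmnb2. Prelamin A and the B-type lamins end in a CaaX box, whose cysteine receives a farnesyl group from farnesyltransferase, a dimer of the Fnta and Fntb products. The last residues are then cut off by an endoprotease, for which Rce1 and Zmpste24 are the candidates, and Icmt methylates the exposed cysteine. In prelamin A alone, Zmpste24 makes a further cut that removes the farnesylated tail and leaves mature lamin A. Lamin C has no CaaX box and passes through none of these steps.

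The stretches below are shown because they hold the ends at which the lamin products differ. They come from the GENCODE M21 transcripts of the build GRCm38, matched to the files by transcript identifier, and are written 5′ to 3′ on the coding strand. The first pair shows where lamin A and lamin C part, with capitals after the last of their 568 codons in common. The last is the end of lamin B2 with its CaaX box in capitals and the stop codon after it.
lamin A fork: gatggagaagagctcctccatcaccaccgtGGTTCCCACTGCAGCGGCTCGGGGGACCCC
lamin C fork: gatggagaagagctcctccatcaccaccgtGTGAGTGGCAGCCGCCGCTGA
lamin B2 end: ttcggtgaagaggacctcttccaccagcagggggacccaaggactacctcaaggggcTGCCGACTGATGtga

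Codon 97 lies in the first exon, which holds codons up to 118 in both products, so the labelled position is common to lamin A and lamin C. After the codons in common, lamin C adds 6 codons and stops at 574, whereas lamin A adds 97 and stops at 665. The Zmpste24 cut follows the tyrosine of codon 647, from which 18 codons remain to the stop, the CaaX box among them. The last residues of that box are cut off earlier, as described above.

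The libraries held an estimated 89600000 to 115600000 reads on transcripts, and 14463 to 14684 genes reached 1 TPM (transcripts per 1000000, a level per transcript length). The labels call the libraries of a group biological replicates but do not say whether they came from separate cultures, and the p-values rest on the spread between these particular samples, which may be technical only. Wild-type replicate 1 stood apart from the others. Mitochondrial genes held 7.37% of its TPM against 5.30% to 5.55% in the other 3 libraries, and its exon coverage profile, given below for Lmna, differed more from the rest. The myoblast markers summed to 799.3 to 946.3 TPM, led by Des, Itga7 and Vcam1, with Myod1 at 4.56 to 4.96 TPM. Msc, also on that list, stayed at or below 0.0607 TPM and was not tested. Of 9 myoblast markers tested, limma called 0, and 4 lay above 0 and 5 below (median log2 difference -0.14). On TPM divided by scaling factors, 4 of the 9 were lower in both K97E libraries than in both wild-type ones, and 1 was higher. Over all 16304 genes tested, 33.1% had groups apart in either direction. An unadjusted p under 0.05 was reached by 600 of all genes and by 2 of these markers. Both markers at an unadjusted p under 0.05 were lower with K97E, Chrna1 at 49.8 and 51.8 TPM against 40.2 and 41.3 TPM (-0.37) and Vcam1 at 63.8 and 64.7 TPM against 45.8 and 52.6 TPM (-0.44), each with an adjusted p of 0.965. The part of these markers in the results below was not tested. Markers of differentiated fibres summed to 1.99 to 5.46 TPM (highest Mymk, Tnni1 and Tnnt3; Myog at or below 0.0958) and those of leukocytes to 5.01 to 7.86 TPM (Cd68, Cd163, Csf1r; Cd3e and Adgre1 at 0). Endothelial markers summed to 21.01 to 24.91 TPM, of which Cdh5 alone held 17.1 to 20.3, while epithelial markers (Krt8, Krt5, Epcam) stayed at or below 0.393 and cardiomyocyte markers (Tnni3, Nppb, Nppa) at or below 1.589. The symbols of 9 of 12 fibre markers were found, and of 5 of 6 in each of the endothelial, epithelial and cardiomyocyte lists. The sums cover only the markers found, and the others were not measured here.

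All 8 genes were measured at levels well above the filter, and their order was nearly fixed. Lmna had the highest level per length, 8.79 times that of Zmpste24, the next gene, 10.3 times that of Lmnb1 and 21.1 times that of Lmnb2. Fntb had the lowest, 2.25 times below Lmnb2. Lmnb1 and Fnta exchanged the 3rd and 4th places between libraries, and their means differed by 1.02 times. The other 6 genes kept their rank in all 4 libraries, although the ranges of Zmpste24, Lmnb1 and Fnta overlapped across libraries, as did those of Icmt with Rce1 and Rce1 with Lmnb2.

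**Figure D1:**
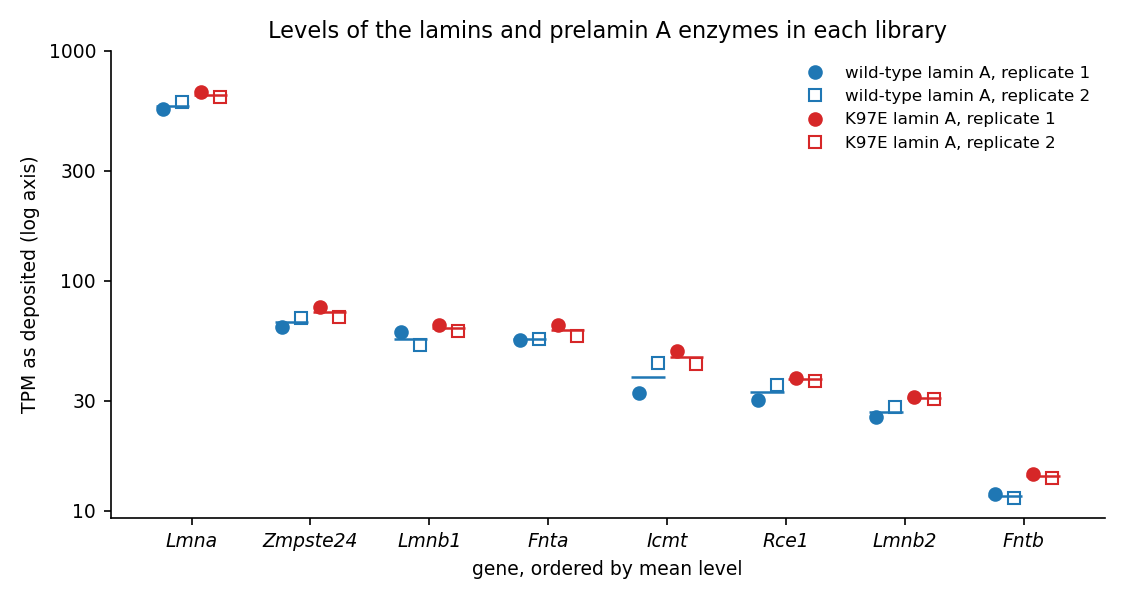
Deposited TPM (log axis) of the 8 genes in each library, with wild-type lamin A in blue and K97E in red, circles for replicate 1, open squares for replicate 2 and bars for group means. Lmna lies between 558 and 660 TPM, and the other 7 genes lie between 11.4 and 77.1 TPM.

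No member passed the test between K97E and wild-type lamin A. All 8 had a higher mean with K97E, by a median log2 difference of 0.12 and a range of 0.07 to 0.23, beside a median of -0.0017 and a median size of 0.10 over all 16304 genes tested, of which 49.5% lay above 0. limma called 0 of the 8 at an adjusted p under 0.05, and 0.00613% of all genes tested (1 gene). None of the 8 reached an unadjusted p under 0.05, as 600 of all genes did, and with voom weights 0 of the 8 were called too. Each had an adjusted p of 0.965. On TPM divided by scaling factors, both K97E libraries lay above both wild-type libraries for 6 of the 8, against 16.3% of all genes tested. On TPM as deposited that held for 7 of the 8, against 25.9%, on a scale where the median of all genes lay 0.05 above 0. The 8 values come from the same 4 libraries and are not independent of each other.

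**Figure D2:**
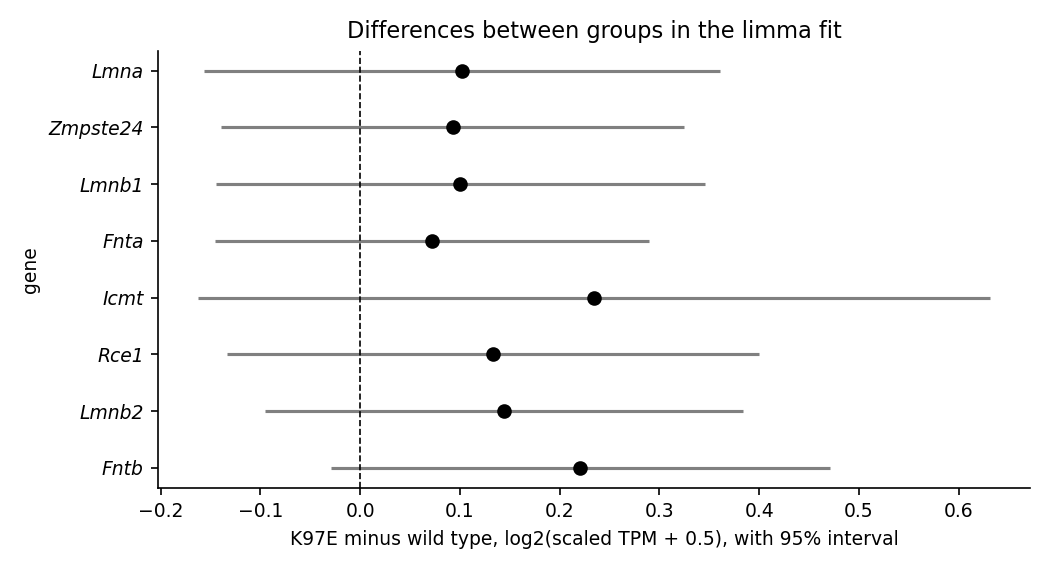
Difference between K97E and wild-type lamin A in the limma fit for each gene (points, log2 of scaled TPM plus 0.5) with its 95% interval (lines). All 8 points lie between 0.07 and 0.23, and all 8 intervals include 0.

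Among the lamins, the level of Lmna (ENSMUSG00000028063; on the minus strand of GRCm39 chromosome 3, 88387454 to 88417263) was 557.7 and 596.0 TPM with wild-type lamin A and 659.7 and 629.4 TPM with K97E. Both K97E libraries were above both wild-type ones. The group means were 577 ± 27.1 and 645 ± 21.4 TPM (SD, n = 2 each), and the log2 difference was 0.10 (SE 0.10, 95% interval -0.16 to 0.36). It was 0.05 without wild-type replicate 1 and 0.15 when wild-type replicate 2 was left out. Both groups received a lamin A DNA, so the Lmna level is no check of the labels.

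Lmnb1 (ENSMUSG00000024590; chromosome 18, 56840885 to 56886496, plus strand), a B-type lamin, stood at 59.5 and 52.5 TPM with wild-type lamin A and 64.2 and 60.7 TPM with K97E. On the scaled values the lower K97E library and the higher wild-type library lay at 60.8 and 60.7 TPM, so the groups barely parted. The log2 difference was 0.10 (SE 0.10, 95% interval -0.15 to 0.35), with 0.18 between the wild-type replicates themselves. It was 0.19 without wild-type replicate 1 and 0.010 when wild-type replicate 2 was left out. Lmnb2 (ENSMUSG00000062075; chromosome 10, 80737037 to 80754079, minus strand), the other B-type lamin, stood at 25.6 and 28.1 TPM with wild-type lamin A and 31.1 and 30.7 TPM with K97E. Its groups did not overlap, and the log2 difference was 0.14 (SE 0.10, 95% interval -0.10 to 0.38). It was 0.08 without wild-type replicate 1 and 0.21 when wild-type replicate 2 was left out.

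The balance between A-type and B-type lamins overlapped between groups. Lmna TPM over the sum of Lmnb1 and Lmnb2 was 6.55 and 7.40 with wild-type lamin A and 6.92 and 6.89 in the K97E libraries. The K97E values lay between the wild-type ones, and the log2 ratio differed by -0.01 (exact permutation test, two-sided, p = 1.0). With 2 libraries a group the smallest p this test can give is 0.333. Against Lmnb2 alone the ratio was 21.8 and 21.2 with wild-type lamin A and 21.2 and 20.5 with K97E, a log2 difference of -0.04 (exact permutation p = 0.333).

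Farnesyltransferase was represented very unequally at the RNA level. Fnta (ENSMUSG00000015994; chromosome 8, 26488750 to 26505678, minus strand) encodes the alpha subunit, which is also part of geranylgeranyl transferase I, and stood at 55.3 and 55.9 TPM with wild-type lamin A and 64.5 and 57.5 TPM with K97E. K97E replicate 1 was high, the other K97E library was close to the wild-type ones, and the log2 difference was 0.07 (SE 0.09, 95% interval -0.15 to 0.29), or 0.02 without K97E replicate 1 and 0.12 without K97E replicate 2. Fntb (ENSMUSG00000033373; chromosome 12, 76812363 to 76968186, plus strand) encodes the beta subunit and stood at 11.8 and 11.4 TPM with wild-type lamin A and 14.5 and 13.8 TPM with K97E. The groups did not overlap, and the difference of 0.22 on the log2 scale (SE 0.10, 95% interval -0.03 to 0.47) exceeded the gap within either group, 0.05 and 0.00. The differences of Lmna and Lmnb2 also exceeded both of their gaps, and the share of all genes that did so is not given here. Fntb had the smallest p among the 8 genes (limma unadjusted p = 0.0737, adjusted p = 0.965). Its difference stayed between 0.20 and 0.24 with any 1 library left out.

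Pggt1b, the beta subunit that pairs with the Fnta product in geranylgeranyl transferase I, stood at 15.1 and 14.9 TPM with wild-type lamin A and 15.96 and 13.63 TPM with K97E. Fnta TPM was 2.06 and 2.12 times the sum of both beta subunits with wild-type lamin A and 2.12 and 2.09 times in the K97E libraries. This ratio, added after seeing the data, overlapped between groups (log2 difference 0.01, exact permutation p = 1.0). Over Fntb alone it was 4.70 and 4.91 with wild-type lamin A and 4.46 and 4.16 with K97E (log2 difference -0.16, exact permutation p = 0.333). Fntb shares 257 exon bases with Churc1 on the same strand, none of them in the Fntb transcript that holds nearly all of its TPM.

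Rce1 (ENSMUSG00000024889; chromosome 19, 4672619 to 4675669, minus strand), a CaaX endoprotease of the endoplasmic reticulum, stood at 30.2 and 35.1 TPM with wild-type lamin A and 37.8 and 36.7 TPM with K97E. Wild-type replicate 1 was lowest, and the log2 difference of 0.13 (SE 0.11, 95% interval -0.13 to 0.40) came to 0.03 without it and to 0.24 without wild-type replicate 2. The gap between the wild-type replicates was 0.22. Zmpste24 (ENSMUSG00000043207; chromosome 4, 120916434 to 120955438, minus strand), the zinc metalloprotease that makes the last cut in prelamin A, stood at 63.1 and 68.6 TPM with wild-type lamin A and 77.1 and 69.2 TPM with K97E. On the scaled values the groups overlapped, at 64.4 and 70.0 TPM against 73.9 and 69.4 TPM. The log2 difference was 0.09 (SE 0.09, 95% interval -0.14 to 0.32), and it came to 0.03 without wild-type replicate 1 and 0.15 when wild-type replicate 2 was left out.

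The ratio of lamin A RNA to the RNA of its protease overlapped between groups. The lamin A transcript stood at 3.96 and 4.42 times the Zmpste24 level with wild-type lamin A and at 4.40 and 4.34 times in the K97E libraries. The log2 ratio differed by 0.06 (exact permutation p = 1.0), and the K97E libraries lay inside the wild-type range.

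Icmt (ENSMUSG00000039662; chromosome 4, 152381684 to 152391578, plus strand), the methyltransferase of the processed CaaX cysteine, stood at 32.4 and 44.0 TPM with wild-type lamin A and 49.4 and 43.5 TPM with K97E. The groups overlapped, since wild-type replicate 2 exceeded K97E replicate 2. The log2 difference was 0.23 (SE 0.16, 95% interval -0.16 to 0.63), the largest among the 8 genes, yet the wild-type replicates were 0.44 apart. The difference was 0.02 without wild-type replicate 1 and 0.45 when wild-type replicate 2 was left out.

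Of the 44 transcripts of these genes, 4 were listed at 0 in all libraries, 23 passed the filter of a mean of at least 0.5 TPM and 19 had a mean of at least 1 TPM. limma called 0 of the 23 and 0% of all 38950 transcripts tested. At an unadjusted p under 0.05 there were 1 and 1793, and with voom weights 0 were called. Both K97E libraries lay above both wild-type libraries for 5 of the 23, beside 15.2% of all transcripts. Single transcripts held most of the TPM of Lmnb1 (99.8%), Zmpste24 (99.0%) and Fnta (90.9%), whereas Lmna and Icmt were each split between a pair of products.

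The lamin A transcript (ENSMUST00000029699, 12 exons) stood at 250.1 and 303.1 TPM with wild-type lamin A and 339.0 and 300.4 TPM with K97E. The lamin C transcript (ENSMUST00000120377, 10 exons) stood at 292.9 and 277.7 TPM with wild-type lamin A and 303.1 and 314.1 TPM with K97E. Both overlapped between groups on the scaled values, with log2 differences of 0.15 (SE 0.13) for lamin A and 0.06 (SE 0.10) for lamin C. With 1 library left out, lamin A ranged from 0.016 (without wild-type replicate 1) to 0.29 and lamin C from -0.0026 (without K97E replicate 2) to 0.11.

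Lamin A thus held about as much RNA as lamin C. Its share of the sum of both was 46.1% and 52.2% with wild-type lamin A and 52.8% and 48.9% in the K97E libraries, overlapping between groups (difference 1.71 percentage points, exact permutation p = 0.667). Another measure, less dependent on how reads were split between transcripts, took the 1220 bases in lamin A but not lamin C (exons 11 and 12). The measure was their coverage over all Lmna transcripts, as a percent of that on the 1908 bases both products share. It was 44.2% and 51.0% with wild-type lamin A and 49.8% and 45.3% with K97E, and the group means differed by -0.07 percentage points (exact permutation p = 1.0). Coverage of the 113 bases in lamin C but not lamin A, at the end of exon 10, was also set against the shared coverage. It was 37.5% and 36.8% with wild-type lamin A and 34.9% and 37.2% with K97E. The retained-intron form ENSMUST00000147537 spans both stretches, so neither belongs to a single product. Wild-type replicate 1 had the lowest lamin A value in both measures, and in each the gap within a group was larger than the difference between the group means.

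**Figure D3:**
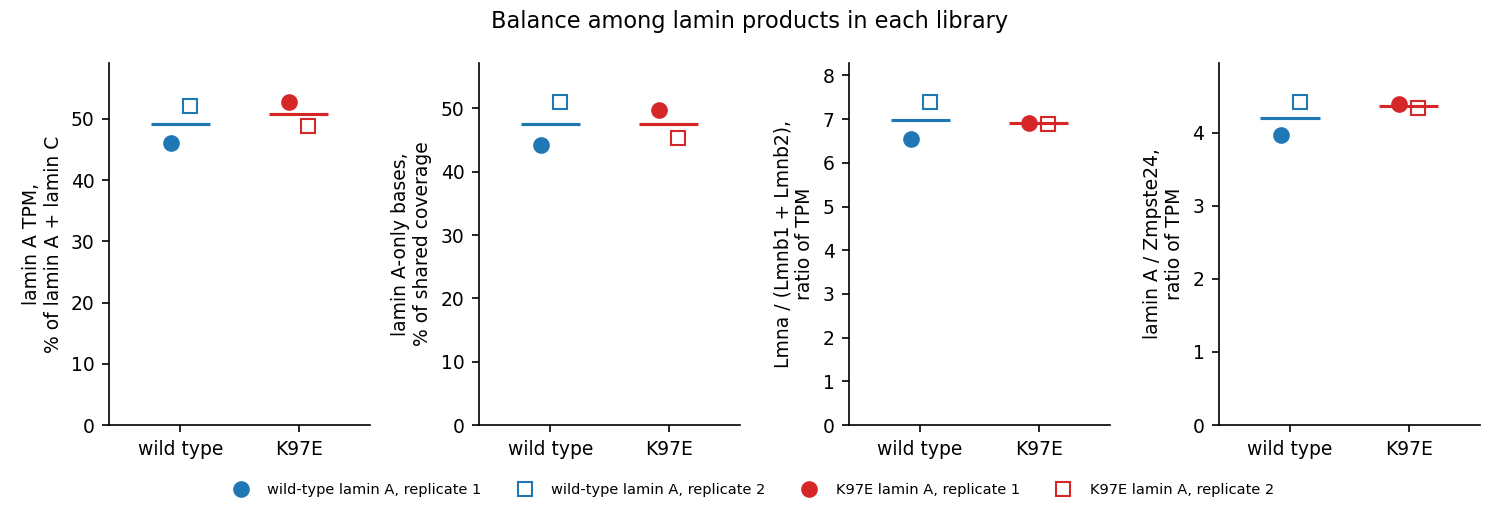
Lamin A share of the TPM of lamin A plus lamin C (percent), coverage of bases in lamin A but not lamin C (percent of shared coverage), Lmna over Lmnb1 plus Lmnb2 (ratio of TPM) and lamin A over Zmpste24 (ratio of TPM), with points for libraries, bars for group means and vertical axes from 0. The wild-type and K97E libraries overlap in all 4 panels.

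The lesser Lmna transcripts were a retained-intron form (ENSMUST00000147537) at 11.5 and 12.5 TPM with wild-type lamin A and 13.4 and 9.95 TPM with K97E, and ENSMUST00000149068, which starts at upstream first exons. The latter stood at 3.07 and 2.71 TPM with wild-type lamin A and 4.23 and 4.90 TPM with K97E. Its groups did not overlap, and the log2 difference of 0.53 (SE 0.21) had a limma unadjusted p of 0.0668 and an adjusted p of 0.958. A coding transcript that starts inside the gene, ENSMUST00000036252, was near 0 at 0.0420 to 0.0985 TPM.

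Coverage along Lmna was uneven in all 4 libraries. Relative to the mean over all exon bases, exons 3, 4, 8 and 9 stood highest and exons 11 and 12 lowest. The latter are the exons that lamin A uses and lamin C does not. In wild-type replicate 1 exon 4 (1.89) lay above exons 8 (1.58) and 9 (1.65), whereas in the other 3 libraries it lay below both. Exon 3 stood at 2.04 in wild-type replicate 1 and at 1.53, 1.52 and 1.61 in wild-type replicate 2 and the K97E libraries, and exon 11 at 0.465 against 0.588, 0.586 and 0.564. Wild-type replicate 1 therefore had the odd profile, with a root mean square log2 deviation from the other 3 libraries of 0.199, where theirs were 0.0640 to 0.0839. That was not special to Lmna. Over 1717 transcripts with at least 8 exons of at least 50 coverage each, a comparison added after seeing the data that takes each transcript's own coverage and not the sum over a gene, the median deviation was 0.250 in wild-type replicate 1 and 0.111 to 0.119 in the others, and 84.3% deviated there at least as much as lamin A, whose value by that measure was 0.188.

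**Figure D4:**
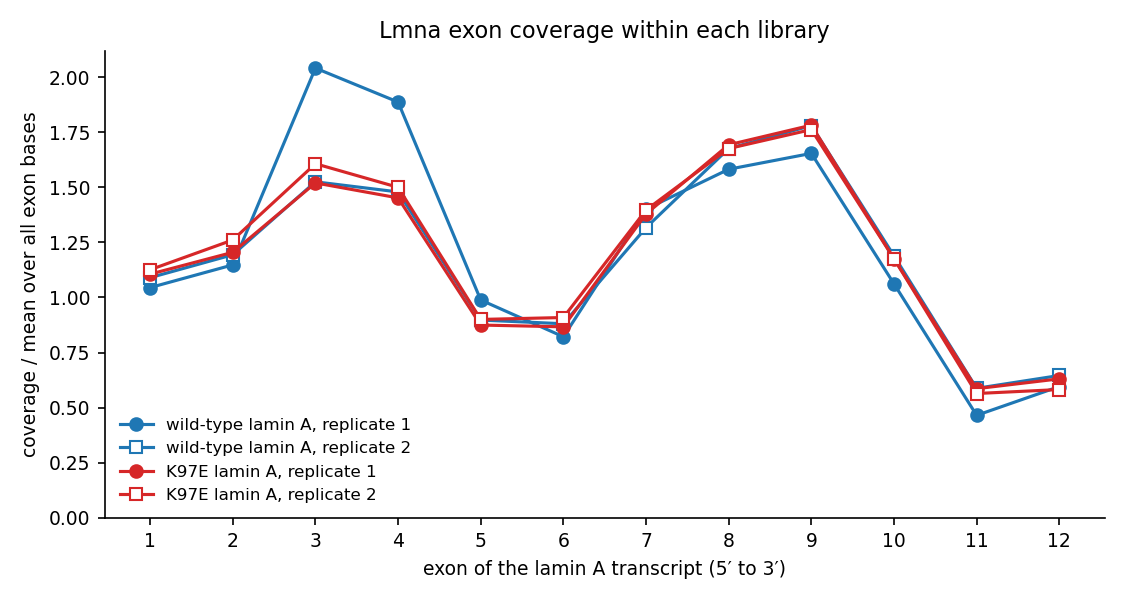
Coverage of each exon of the lamin A transcript, summed over Lmna transcripts and divided by its mean over all exon bases, for the 4 libraries. Wild-type replicate 1 reaches 2.04 at exon 3, where the other 3 libraries lie between 1.52 and 1.61, and exons 11 and 12 are low in all 4.

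The largest transcript difference among the 23 tested was in Icmt. Its coding transcript of 5 exons (ENSMUST00000048892) stood at 3.16 and 5.25 TPM with wild-type lamin A and 18.0 and 12.7 TPM with K97E. Both K97E libraries were well above both wild-type ones. The log2 difference was 1.71 (SE 0.32), with a limma unadjusted p of 0.00662 and an adjusted p of 0.623, so it did not pass the test, and it stayed between 1.39 and 2.04 in all alternatives, with an adjusted p of 0.407 to 1.0. The 6-exon transcript (ENSMUST00000151372), annotated in GENCODE M21 as a target of nonsense-mediated decay, stood at 28.9 and 38.5 TPM with wild-type lamin A and 31.0 and 30.5 TPM with K97E (log2 difference -0.17, SE 0.18). The share of the 5-exon form was 9.87% and 11.98% with wild-type lamin A and 36.6% and 29.5% with K97E (exact permutation p = 0.333, added after seeing the data).

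Exon coverage gave another size for this split. The forms differ by exon 3 of the longer one (chromosome 4, 152383594 to 152383702, 109 bases), which the 5-exon form skips, and at their ends. The 5-exon form starts further upstream, and 265 of the 342 bases of its exon 1 are shared. Of its last exon 4099 of 4100 bases are shared. Coverage of exon 3 was 17.3 and 24.9 with wild-type lamin A and 21.3 and 21.3 with K97E. The libraries had unequal depth, so exon 3 was set against its neighbours within each library. The neighbouring exon 2 stood at 46.6 and 82.3, and at 124.9 and 101.3, and exon 4 at 82.7 and 178, and at 231 and 217. Exon 3 thus had 26.7% and 19.1% of the mean of its neighbours with wild-type lamin A and 11.99% and 13.37% in the K97E libraries. In all 4 libraries it lay far below the exons beside it, although the transcript estimates credited most Icmt RNA to the form that holds it. The ratio was lower in both K97E libraries (difference -10.2 percentage points, exact permutation p = 0.333, added after seeing the data), and by -6.41 points without wild-type replicate 1. Icmt coverage was also lower toward the 5′ end, most so in wild-type replicate 1, where exon 1 had 0.0944 of the mean over exon bases against 0.137, 0.164 and 0.188 in wild-type replicate 2 and the K97E libraries. The parts of that slope and of the differing ends in the split were not tested. Of the Icmt exon bases, 103 overlap Rnf207 on the opposite strand.

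**Figure D5:**
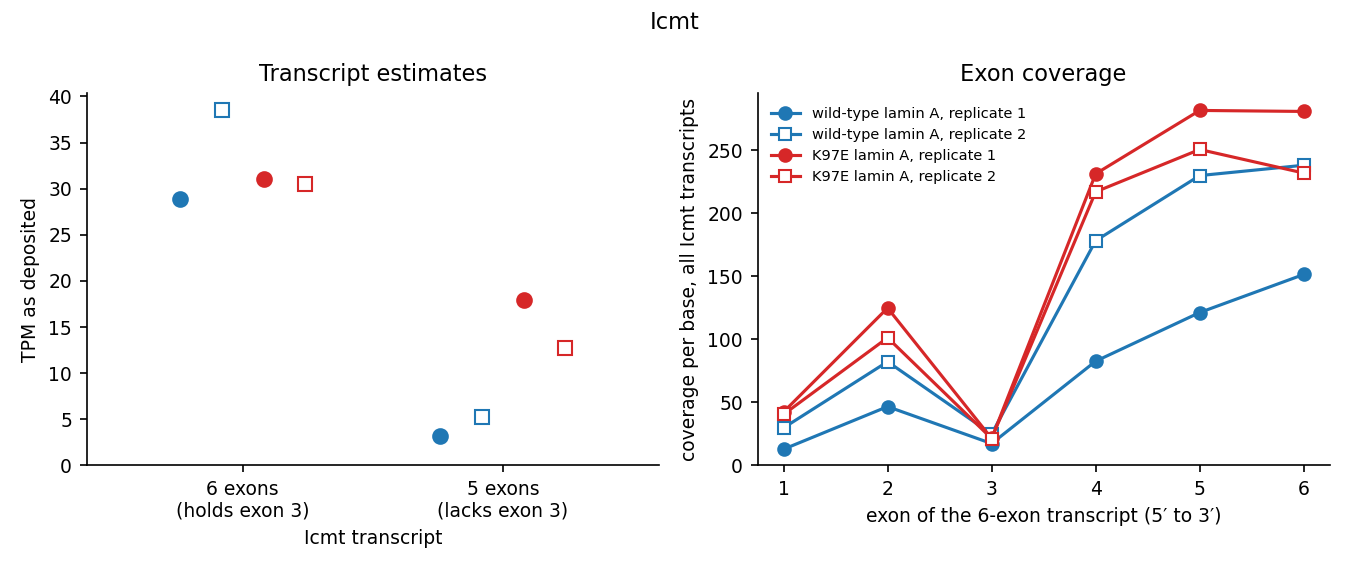
Left, deposited TPM of the Icmt forms with 6 and 5 exons in each library; right, coverage per base of the exons of the 6-exon form, summed over Icmt transcripts. The 5-exon form lies at 3.16 and 5.25 TPM with wild-type lamin A and at 18.0 and 12.7 TPM with K97E, while coverage of exon 3 lies between 17.3 and 24.9 in all 4 libraries.

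Among the other transcripts, the main Rce1 form (ENSMUST00000025823) stood at 22.7 and 23.9 TPM with wild-type lamin A and 29.2 and 29.0 TPM with K97E, groups that did not overlap (log2 difference 0.26, SE 0.12, limma adjusted p = 0.958). The main Fntb form (ENSMUST00000041008) differed by 0.22 (SE 0.13). The main forms of Lmnb2 (ENSMUST00000179022), Lmnb1 (ENSMUST00000025486), Fnta (ENSMUST00000016138) and Zmpste24 (ENSMUST00000058754) differed by 0.17, 0.10, 0.10 and 0.09. Without wild-type replicate 1 those of Lmnb2, Fnta and Zmpste24 came to 0.013, 0.041 and 0.034, and without wild-type replicate 2 that of Lmnb1 came to 0.011. A second coding Lmnb2 form, ENSMUST00000057623, stood at 4.11 and 1.25 TPM with wild-type lamin A and 4.36 and 0.952 TPM with K97E. Both libraries numbered 1 lay above both numbered 2, but no label pairs the libraries by number. The 6 remaining forms at a mean of at least 1 TPM belonged to Fnta (ENSMUST00000211718, ENSMUST00000209247 and ENSMUST00000209664) and Rce1 (ENSMUST00000237022, ENSMUST00000225509 and ENSMUST00000225476). All 6 were at or below 5.34 TPM in every library and overlapped between groups.

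The enzymes of the mevalonate route that make the farnesyl donor, with Ggps1 beside them, formed a list of 8 genes. All 8 were tested by limma and 0 passed in either direction, while 5 had an unadjusted p under 0.05, as 600 of all 16304 genes tested did. Their median log2 difference was 0.29, 7 of 8 had both K97E libraries above both wild-type libraries (16.3% of all genes), and the summed level was 287.4 and 285.7 TPM against 347.3 and 361.4 TPM. Fdps, the synthase of farnesyl diphosphate, stood at 98.0 and 107.5 TPM with wild-type lamin A and 128.4 and 137.6 TPM with K97E, which is 0.31 on the log2 scale (SE 0.10, limma unadjusted p = 0.0254, adjusted p = 0.965). Idi1, the isopentenyl diphosphate isomerase, stood at 18.8 and 18.9 TPM against 24.8 and 24.8 TPM (0.33, SE 0.09), and Mvk, the mevalonate kinase, at 13.9 and 15.6 TPM against 19.7 and 18.0 TPM (0.29, SE 0.11). Ggps1, which lengthens the farnesyl chain to geranylgeranyl, was the exception at 32.6 and 30.2 TPM against 30.7 and 29.9 TPM (-0.11, SE 0.09). Cholesterol genes were known to be higher in these K97E libraries when the list was drawn up, so its direction is not independent evidence.

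The lists around the members gave 0 calls each by limma. Of 6 other prenyl transferase genes, 2 were above 0 and 4 below (median -0.04), with 0 at an unadjusted p under 0.05. Rabggtb, a subunit of Rab geranylgeranyl transferase, differed by -0.07, Pggt1b by -0.08 and Ptar1 by 0.10. Of 15 other farnesylated proteins, 7 were above 0 and 8 below (median -0.02), with Dnaja1, a co-chaperone, at -0.13, the kinetochore motor Cenpe at -0.13 and Rnd3 at -0.14. Without K97E replicate 2 these came to -0.0039 for Pggt1b, -0.047 for Cenpe and -0.037 for Rnd3, and Dnaja1 to -0.059 without wild-type replicate 1. On TPM as deposited the medians of these 2 lists were 0.01 and 0.04.

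Of 17 lamin-binding proteins, 12 were above 0 and 5 below (median 0.06), and 1 had an unadjusted p under 0.05. That was Lbr, the lamin B receptor of the inner nuclear membrane, at 23.1 and 25.1 TPM with wild-type lamin A and 29.7 and 30.2 TPM with K97E (log2 difference 0.25, SE 0.10, limma unadjusted p = 0.045, adjusted p = 0.965). Both K97E libraries were above both wild-type ones, as they were for Lemd2, a LEM-domain membrane protein (0.16). On the scaled values that order held for 5 of the 17 genes, beside 16.3% of all genes tested, and the opposite order for 1. Tor1aip1, a membrane protein that binds lamins, had the opposite order on the scaled values (-0.15, and -0.071 without wild-type replicate 1). Narf, which binds the prenylated prelamin A tail, stood at 13.6 and 15.0 TPM against 17.7 and 14.5 TPM and overlapped between groups.

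Among 3 splicing factors known to act on lamin A RNA (median -0.01, 1 above 0 and 2 below), the groups overlapped for Srsf6 (0.02) and for Srsf1, whose -0.01 turned positive on TPM as deposited (0.05), after quantile normalization (0.03), on FPKM (0.02) and with voom weights (0.05). Srsf5 was lower in both K97E libraries on the scaled values (-0.22), and wild-type replicate 1 stood at 260.8 TPM against 204.4 to 208.5 TPM in the other 3 libraries. Without that library the Srsf5 difference was -0.051. Lamin kinases and phosphatases had 8 of 14 above 0 (median 0.02), with Akt1 at 0.10, the phosphatase subunit Ppp1ca at 0.12 and the anchor protein Akap8l at -0.12. Without wild-type replicate 1 Akt1 and Ppp1ca came to 0.063 and 0.067, and without K97E replicate 1 Akap8l came to -0.053. Among lamin-cleaving caspases and lamin-modifying ligases 4 of 6 were above 0 (median 0.02). Casp6, the caspase that cuts lamin A, stood at 27.0 and 24.1 TPM against 28.1 and 27.2 TPM (0.06), and the ligase Smurf2 differed by 0.10. In these last 3 lists 0 genes had an unadjusted p under 0.05.

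The genes whose profile over the 4 libraries was most like that of Lmna were Arhgef40, Arf6, Slc25a1, Ccs and Akt1. Their root mean square differences from Lmna, on log2 values centred on each gene, were 0.00506, 0.00598, 0.00646, 0.00843 and 0.0104, where the median over 3266 genes with a mean of at least 50 TPM was 0.107. Among the members Lmnb2 (0.0295) and Zmpste24 (0.0325) were nearest to Lmna and Icmt (0.143) farthest. With 4 libraries such likeness describes 4 values per gene only.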

How the data were processed

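Gene and transcript levels came from 1 deposited file per library. Per the file headers, StringTie 2.1.7 estimated annotated transcripts of Ensembl release 104 with no strand option, and the authors' deposited values are coverage, FPKM and TPM, with no read counts. The submitters' processing notes also name HISAT2, SAMtools, FastQC, DESeq2 and the build GRCm39; the role of DESeq2 is not given in the sources used. Libraries were stranded, with paired reads of 100 bases, per the labels' protocols. Reads over several transcripts are divided among them by StringTie's model, so transcript values are estimates, and no counting interval was computed. Estimated reads are coverage times length over read length.

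Gene TPM was the sum over a gene's transcripts. TPM was divided by median-of-ratios factors, 0.5 was added before log2, and genes or transcripts averaging at least 0.5 TPM were tested with limma 3.58.1 in R 4.3.3 (lmFit, eBayes with trend; 5.54 total degrees of freedom for genes and 3.79 for transcripts), two-sided, with Benjamini-Hochberg adjustment over all of them and a threshold of 0.05. Differences are K97E minus wild type on that log2 scale, which understates low genes; printed TPM are as deposited unless called scaled. Ratios used exact permutation tests. Exon coverage was summed over a gene's transcripts.

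The members and all lists were chosen with earlier results of these data known. Named were the members, their transcripts at a mean of at least 1 TPM, of each list up to 3 genes with the smallest p plus Fdps, Ggps1, Pggt1b, Narf, Srsf1, Srsf6 and Casp6, the 3 highest markers of each marker list, and the 5 profiles nearest to Lmna. Markers added to these for their defining role are Myod1, Myog, Cd3e and Adgre1. Some items that the rule would name are not reported here. Chrna1, Msc and ENSMUST00000036252 were named after their values were seen. Other settings tried were the pseudocount, the filter, the scaling, FPKM in place of TPM, eBayes without trend or robust, voom, a block on the replicate number, and fits that each leave out 1 library. Files were parsed in Python 3.11.15 (pandas 2.3.3), and plots used matplotlib 3.10.9.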

Additional observations from a re-analysis of the deposited data

How the results depend on the processing

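None of the 8 genes was called or changed direction under any of 16 alternatives each. Their log2 differences ranged most for Icmt (0.017 to 0.45) and least for Fntb (0.20 to 0.28). Over all genes the number called, 1 in the fit reported, was 0 with no filter, 2 on TPM as deposited, 2 with eBayes without trend and 4 with voom weights. Leaving out single libraries gave 0 to 12 calls, the 12 without wild-type lamin A replicate 1. With the replicate number as a block 0 genes were called; the numbers do not pair the samples by any label, and the correlation of their differences was -0.137. A crossed pairing, chosen after seeing the data, called 30 genes and 0 transcripts. Transcripts called were 0 in every alternative. All planned ratios overlapped between groups in their main form. Against Lmnb2 alone the A-type to B-type ratio was lower in both K97E libraries (log2 difference -0.04). With single libraries left out the lamin A share differed by -1.35 to 4.77 percentage points. Coverage of bases in lamin A but not lamin C then differed by -3.50 to 3.37 percentage points. With all libraries, that coverage differed by 3.79 points on exon 11 alone and -1.15 on exon 12 alone. It differed by 0.73 against shared bases of exons 2 to 9 only and by -2.40 against those of exons 1 and 2 only. The groups overlapped in each of these coverage settings. With single libraries left out some named transcripts took either sign, namely ENSMUST00000211718 (-0.57 to 0.15), ENSMUST00000209247 (-0.35 to 0.47), ENSMUST00000209664 (-1.17 to 0.37), ENSMUST00000151372 (-0.38 to 0.033), lamin C (ENSMUST00000120377, -0.0026 to 0.11), ENSMUST00000147537 (-0.28 to 0.063), ENSMUST00000057623 (-0.99 to 0.70), ENSMUST00000237022 (-0.90 to 0.70) and ENSMUST00000225509 (-0.17 to 0.096, and 0.0082 on TPM as deposited). So did the list genes Narf (-0.0021 to 0.21), Srsf6 (-0.0038 to 0.049), Casp6 (-0.021 to 0.14) and Srsf1 (-0.11 to 0.091). Srsf1 also changed sign on TPM as deposited (0.046), after quantile normalization (0.033), on FPKM (0.017) and with voom weights (0.052). The Icmt exon 3 measure differed by -14.6 percentage points against exon 2 alone and -7.92 against exon 4 alone. The cause of these changes was not tested. Where a library left out leaves 1 sample in a group, that sample is taken to vary like the others.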
